A study of Mus musculus with 8 samples.

Results

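The genes described here are Sox9, the Eph receptors Ephb2 and Ephb3, their ligand Efnb1, the surface proteins Cd44 and Cd24a, the Wnt ligand Wnt3 and the Wnt receptor Fzd5. They were chosen by name, as Wnt-dependent genes of Paneth cell maturation and of cell positioning at the crypt base, with earlier results of these data known. Of these 8 genes 7 had a probe, 16 probes in all, among 15123 genes on 22305 probes. Cd44 had 8 probes, Fzd5 had 3, and Ephb3, Efnb1, Sox9, Cd24a and Wnt3 had 1 each. No probe used here carries the name of Ephb2, so Ephb2 was not analysed here.

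RNA of intestinal crypt cells was measured on 8 arrays with 2 dyes, 2 arrays for each of 4 groups: crypts at day 0, crypts cultured to day 0.5, crypts cultured to day 1, and crypts cultured to day 1 with LiCl. On each array 1 channel held RNA of Lgr4 null mice, which carry a gene trap allele (Lgr4/Gpr48 Gt) on the outbred CD1 background, and the other channel held RNA of wild-type CD1 mice from the same time of culture. Lgr4 binds R-spondins, which amplify Wnt signals. LiCl inhibits the kinase GSK3 and so stabilises beta-catenin. The allele acts in all cells that use the Lgr4 promoter, so neither the epithelium nor a single cell type was targeted. The labels give no age, are silent on pooling and on whether both arrays of a group came from different animals or cultures, and name added Wnt3a among the culture protocols without saying whether these crypts received it. All p-values therefore measure only how far these arrays differ, a spread that may be technical.

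Each value is a log ratio, taken as log2 (the base is assumed), in its likely direction of null over wild type, so a negative value means less RNA in null crypts. That direction rests on the channel order in the labels and on low values of Paneth cell genes. No probe used here carries the name of Lgr4, so the targeted gene could not check it, and ratios hold no levels from which the crypt markers of the tissue could be checked. The spread over all probes was widest on the day 1 arrays (SD 0.473 and 0.441, against 0.247 to 0.335 on the other 6), and arrays of 1 group correlated at 0.334 to 0.777 over the probes. The LiCl arrays correlated below 0 with every other array (12 pairs, r from -0.535 to -0.107), and the series text calls their second channel control cells where the labels call it wild type, so the direction of their ratios is not settled. They are given as deposited and, where compared, with the sign turned too.

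In the small intestine, Wnt signals are strongest at the crypt base, where Paneth cells and stem cells lie side by side. EphB receptors on cells of the lower crypt meet ephrin-B ligands on cells higher up, and repulsion between them keeps proliferating cells low and draws Paneth cells to the base. Sox9 is a transcription factor of the crypt base that Paneth cells require, Fzd5 is the frizzled receptor through which Paneth cells receive the Wnt signal that matures them, and Wnt3 is the ligand that Paneth cells themselves secrete. Cd44, a hyaluronan receptor, is a classical Wnt target of crypts, and Cd24a is a small glycosylated surface protein used to sort Paneth cells. Cd44 and Cd24a are also made by blood cells.

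The start regions of 3 of these genes are printed to show what lies at a Wnt target with lower RNA, at the measured Eph receptor and at the Wnt ligand. Each runs from 250 bases before to 50 bases after the annotated gene start, 5′ to 3′ on the gene's strand, and comes from RefSeq on GRCm38.p6. The regions are chr2:102901616-102901915 on the minus strand for Cd44, chr16:21204545-21204844 on the plus strand for Ephb3 and chr11:103773925-103774224 on the plus strand for Wnt3. Capitals mark the core that TCF and LEF factors bind, searched as CTTTGA and CTTTGT on both strands, patterns that cannot overlap on the same strand.
Cd44: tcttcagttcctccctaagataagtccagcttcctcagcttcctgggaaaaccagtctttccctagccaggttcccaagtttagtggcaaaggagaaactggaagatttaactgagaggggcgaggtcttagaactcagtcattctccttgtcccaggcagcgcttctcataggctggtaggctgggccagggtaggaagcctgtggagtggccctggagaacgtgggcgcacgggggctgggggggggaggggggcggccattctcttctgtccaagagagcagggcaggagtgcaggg
Ephb3: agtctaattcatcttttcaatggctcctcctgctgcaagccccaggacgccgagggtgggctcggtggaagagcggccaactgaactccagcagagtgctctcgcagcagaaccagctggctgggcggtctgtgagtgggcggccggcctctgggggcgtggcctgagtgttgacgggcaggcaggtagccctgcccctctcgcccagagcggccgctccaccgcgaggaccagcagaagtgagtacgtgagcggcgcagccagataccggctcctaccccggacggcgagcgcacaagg
Wnt3: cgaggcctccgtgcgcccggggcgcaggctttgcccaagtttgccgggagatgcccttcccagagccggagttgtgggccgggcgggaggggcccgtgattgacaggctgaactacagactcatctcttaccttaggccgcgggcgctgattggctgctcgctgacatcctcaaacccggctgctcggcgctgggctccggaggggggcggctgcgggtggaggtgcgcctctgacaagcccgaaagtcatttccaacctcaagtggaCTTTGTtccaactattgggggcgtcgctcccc
RefSeq start regions were matched by symbol for 6 genes, Ephb2, Ephb3, Efnb1, Cd44, Wnt3 and Fzd5. Only the Wnt3 region of these 6 held the core, once, as CTTTGT beginning at base 19 after the start. Of 32851 start regions of the same length 31.2% held it. The G and C content of the 6 regions was 58.0% to 75.7%, against a median of 52.7% over all start regions. A match here is a description of letters and not a bound site, and a region without a match says nothing of sites elsewhere in the gene.

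Cd24a, the surface protein of Paneth and progenitor cells, was lower in null crypts at day 1. The log2 ratios of its probe mMC024484 were -0.04 and -0.63 on the day 0 arrays, -0.32 and -0.53 at day 0.5, and -1.23 and -1.16 at day 1. All 6 arrays without LiCl lay below 0, and both day 1 arrays lay below the 4 earlier ones. limma, fitted over all 15123 genes with group means and a dye term, gave -1.19 ± 0.14 (standard error, n = 2 arrays) at day 1, a 2.29-fold lower level in null crypts (adjusted p = 0.00125, Benjamini-Hochberg). At day 0 the fitted value was -0.34 ± 0.14 (adjusted p = 0.312) and at day 0.5 it was -0.51 ± 0.16 (adjusted p = 0.256), neither past the threshold of 0.05. Over the 3 untreated groups together the mean was -0.68 ± 0.08 (adjusted p = 0.00207). The ratio fell by 0.86 ± 0.19 from day 0 to day 1 (adjusted p = 0.0415), while the step from day 0 to day 0.5 was -0.17 ± 0.21 (adjusted p = 0.877) and that from day 0.5 to day 1 was -0.68 ± 0.21 (adjusted p = 0.182). The day 1 call is lost without day 1 replicate 1 (-1.01, adjusted p = 0.0529), and the change from day 0 to day 1 is lost without any one of the 6 untreated arrays.

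Cd44, the hyaluronan receptor, was also lower at day 1, by a smaller amount. The mean of its 8 probes stood at -0.15 and -0.21 on the day 0 arrays, -0.33 and -0.45 at day 0.5, and -0.615 and -0.31 at day 1. As for Cd24a, all 6 untreated arrays lay below 0, a pattern found for these 2 of the 7 genes and for 8.34% of all genes. The fitted value at day 1 was -0.46 ± 0.10 (limma, adjusted p = 0.0194), a 1.38-fold lower level, and -0.33 ± 0.06 over the 3 untreated groups (adjusted p = 0.012). Day 0 at -0.18 ± 0.10 (adjusted p = 0.506) and day 0.5 at -0.34 ± 0.12 (adjusted p = 0.32) did not pass. No step between neighbouring times passed (adjusted p = 0.832 and 0.816), and neither did the change from day 0 to day 1 (-0.28 ± 0.15, adjusted p = 0.344). The day 1 call is lost without day 1 replicate 1 (-0.31, adjusted p = 0.414) and without day 1 replicate 2 (-0.62, adjusted p = 0.0777), and with arrays scaled to equal spread (-0.35, adjusted p = 0.0644). The mean over the 3 groups is lost without day 0 replicate 2 (-0.28, adjusted p = 0.139).

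**Figure D1:**
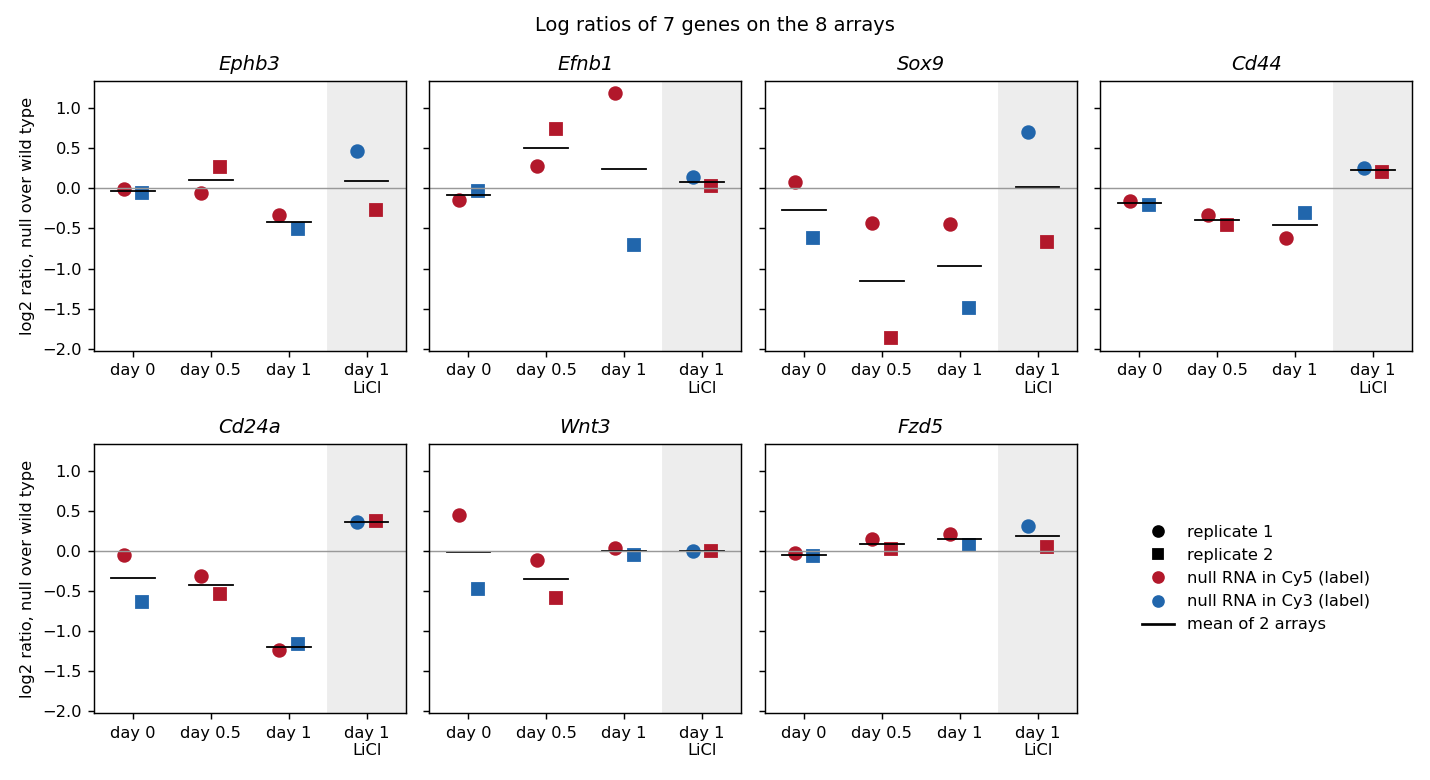
Log2 ratios of null over wild-type RNA (likely direction) for the 7 genes with a probe, by group, with circles for replicate 1, squares for replicate 2, red and blue for null RNA in Cy5 or Cy3 as labelled, and bars for the mean of 2 arrays. Cd24a at day 1 lies at -1.23 and -1.16, replicate 2 of Sox9 lies below replicate 1 in all 4 groups, and the shaded LiCl arrays are drawn as deposited.

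The 8 probes of Cd44 did not move alike. Probe mMC014347 was lowest, at -0.73 and -0.47 at day 0, -1.11 and -0.99 at day 0.5, and -2.07 and -0.76 at day 1. All 6 of its untreated values lay below every untreated value of probe mMC016572, which ran from -0.26 to 0.20. Fitted alone over all 22305 probes, mMC014347 stood at -1.41 ± 0.23 at day 1 (limma, adjusted p = 0.00406), mMR028593 at -0.85 ± 0.13 (adjusted p = 0.00393) and mMA033099 at -0.56 ± 0.11 (adjusted p = 0.0089). These 3 of 8 probes passed at day 1 against 18.5% of all probes, and the fitted values of the other 5 were between -0.40 and 0.10. At day 0 and day 0.5 all 8 fitted values were below 0 and none passed (0 of 8, with 1.63% and 0.332% of all probes passing). Where each probe lies in the Cd44 transcripts, which are known for many alternatively spliced exons, is not given in the sources used here. The gene mean of -0.46 at day 1 therefore joins probes that differ by up to 1.52 on the log2 scale.

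**Figure D2:**
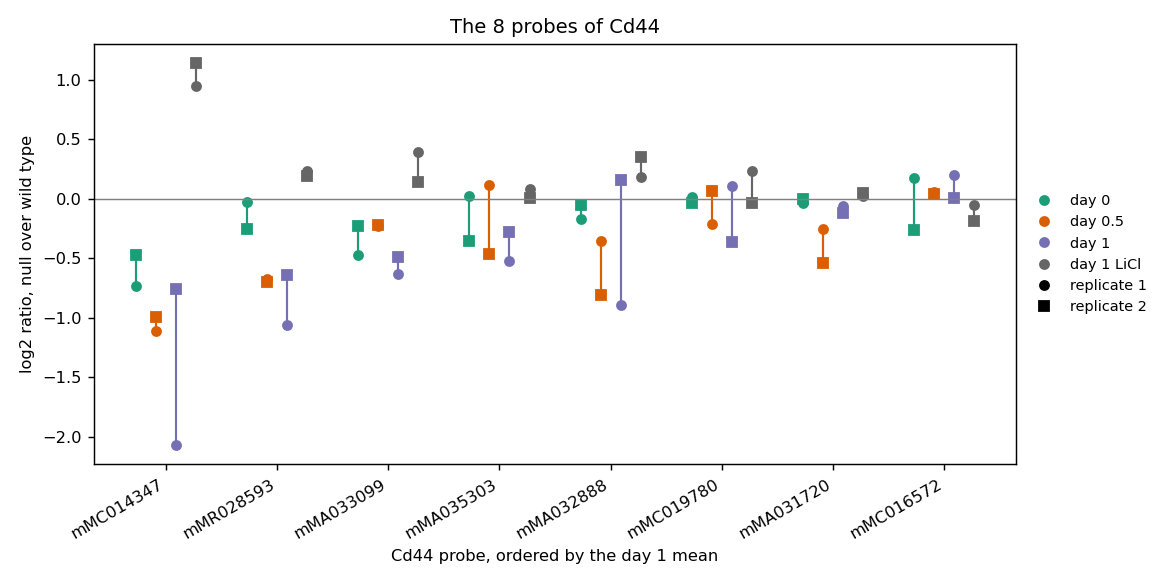
Log2 ratios of each Cd44 probe on the 8 arrays, coloured by group, with a line joining the 2 arrays of a group and probes ordered by their day 1 mean. Probe mMC014347 at the left reaches -2.07 at day 1 while mMC016572 at the right stays between -0.26 and 0.20 on all 6 untreated arrays.

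Sox9, the crypt base transcription factor, had the lowest single ratio of the 7 genes when probes are averaged per gene, and replicates that stood apart in every group. Its probe mMC014036 read 0.08 and -0.625 on the day 0 arrays, -0.43 and -1.87 at day 0.5, -0.45 and -1.498 at day 1, and 0.70 and -0.67 with LiCl. Replicate 2 lay below replicate 1 in each of the 4 groups, by 0.702 to 1.44. Of all 15123 genes 18 (0.119%) had a gap of 1 direction in all 4 groups that was at least as large. Of the 7 genes only Sox9 and Fzd5 had a gap of 1 direction in all 4 groups (25.4% of all genes did), and that of Fzd5 was small, 0.031 to 0.261. The dye as labelled did not follow this gap, since replicate 2 had its null RNA in Cy3 at day 0 and day 1 but in Cy5 at day 0.5 and with LiCl.

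The fit with the dye term called Sox9 at no time. It gave -0.27 ± 0.45 at day 0 (limma, adjusted p = 0.884), -1.21 ± 0.52 at day 0.5 (adjusted p = 0.422) and -0.97 ± 0.45 at day 1 (adjusted p = 0.206), and -0.82 ± 0.27 over the 3 untreated groups (adjusted p = 0.086). At day 0.5 only 21 genes (0.139%) had a lower fitted value. With the replicate number as a block beside the dye term, the standard errors shrank and Sox9 passed at day 0.5 (-1.01 ± 0.13, adjusted p = 0.0276), at day 1 (-0.97 ± 0.11, adjusted p = 0.00105) and over the 3 untreated groups (-0.75 ± 0.07, adjusted p = 0.00055), and its change from day 0 to day 1 also passed (-0.70 ± 0.16, adjusted p = 0.0339). In that fit replicate 1 exceeded replicate 2 by 1.21 ± 0.12 (adjusted p = 0.0271). Its day 0 value of -0.27 ± 0.11 passed in neither fit (adjusted p = 0.255 with the block). The order of the groups, day 0 above day 1 above day 0.5, had no separation between day 0.5 and day 1 (difference 0.24 ± 0.69, adjusted p = 0.928, and 0.04 ± 0.18, adjusted p = 0.949, with the block). Left to 1 day 1 array, the fitted value was -1.67 without replicate 1 and -0.28 without replicate 2, so the size of the Sox9 difference rests on which array is read. With day 0.5 replicate 2 read as a dye swap, as the series text describes, and nothing else changed, Sox9 did not pass. It stood at -1.15 ± 0.41 at day 0.5 (limma, adjusted p = 0.215) and -0.97 ± 0.41 at day 1 (adjusted p = 0.158). If the LiCl sign is turned as well, the lower Sox9 array of every group is the one with null RNA in Cy3. The fitted values of that reading, chosen after seeing the data, were -1.15 ± 0.13 at day 0.5 (adjusted p = 0.0053) and -0.97 at day 1 (adjusted p = 0.00114). With the swap and no LiCl arrays, also chosen after seeing the data, Sox9 passed at both times (adjusted p = 0.0123 and 0.00241). Which of these readings holds was not tested.

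**Figure D3:**
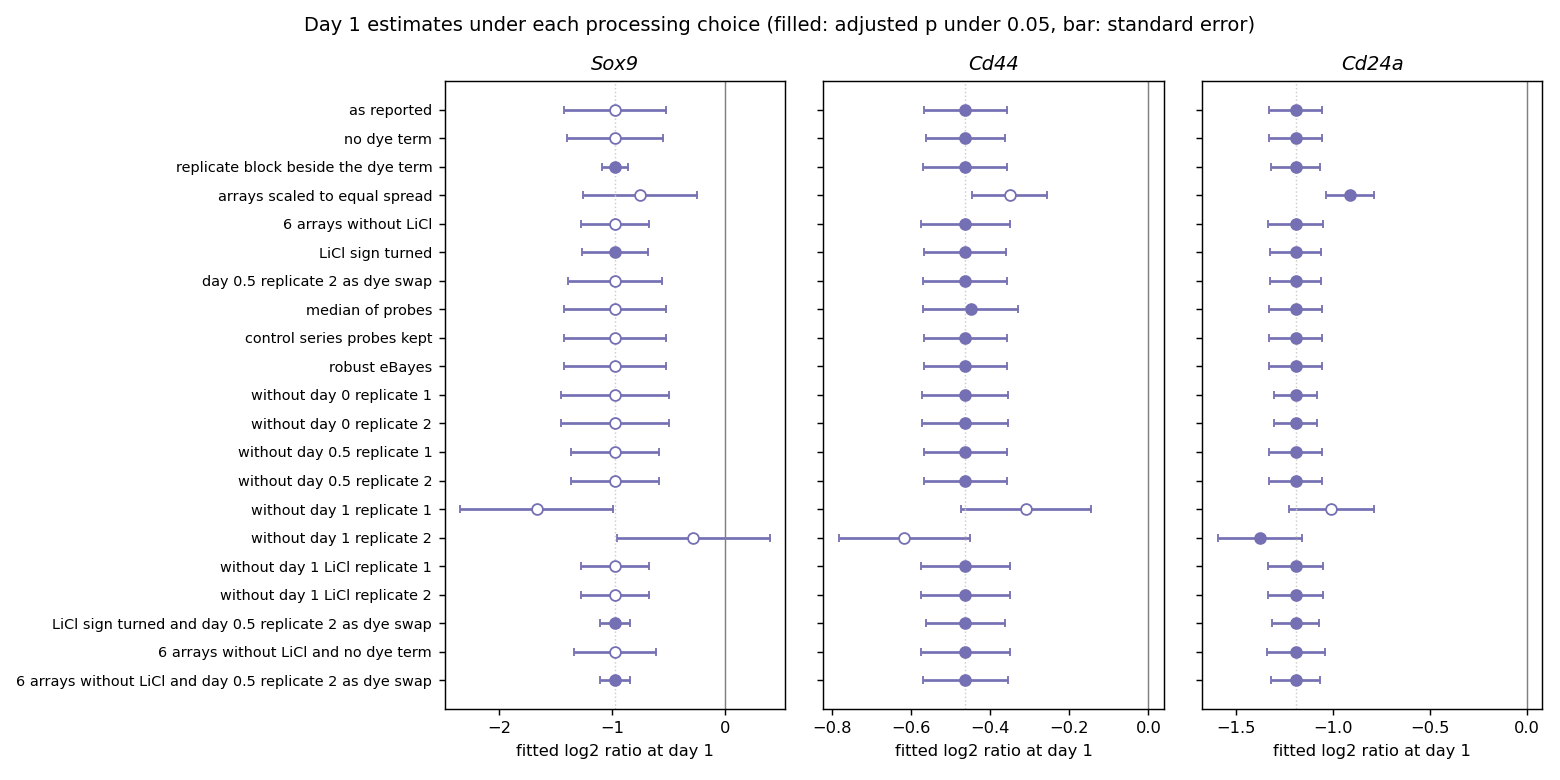
Fitted day 1 log2 ratio with its standard error for Sox9, Cd44 and Cd24a, as reported and under each other processing choice, filled where the adjusted p is under 0.05. All values lie below 0 for the 3 genes. The alternatives are not independent, and leaving out either or both LiCl arrays gives the same day 1 fit. Of 20 alternatives Sox9 is filled in 4, Cd44 in 17 and Cd24a in 19, being open without day 1 replicate 1.

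Among the Eph genes, Ephb3, a receptor of the lower crypt (probe mMC010679), read -0.01 and -0.06 on the day 0 arrays, -0.06 and 0.27 at day 0.5, and -0.34 and -0.51 at day 1. Both day 1 arrays lay below the other 4 untreated arrays. The fitted day 1 value was -0.42 ± 0.17 (limma, adjusted p = 0.148) and did not pass. It was -0.68 without day 1 replicate 1 (adjusted p = 0.224) and -0.16 without replicate 2 (adjusted p = 0.863), and it passed at the same size in the fit of the 6 arrays without LiCl (adjusted p = 0.0482). The change from day 0 to day 1 was -0.39 ± 0.24 (adjusted p = 0.446).

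Efnb1, the ephrin ligand that repels EphB-bearing cells (probe mMC016048), read -0.148 and -0.03 at day 0, 0.275 and 0.74 at day 0.5, and 1.19 and -0.71 at day 1. The day 1 arrays stood on opposite sides of 0 and enclosed all 4 others of the untreated groups. None of its fitted values passed, with 0.24 ± 0.33 at day 1 (adjusted p = 0.758) and 0.23 ± 0.38 at day 0.5 (adjusted p = 0.881). Without day 1 replicate 2 the day 1 value was 1.24 (adjusted p = 0.0234), and without replicate 1 it was -0.76, so no direction can be given.

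The Wnt ligand and its receptor showed no called difference. Wnt3 (probe mMC009364) read 0.45 and -0.47 at day 0, -0.115 and -0.58 at day 0.5, and 0.04 and -0.05 at day 1. Its day 0 arrays disagreed in sign and its day 1 arrays both lay near 0. The fitted values were -0.01 ± 0.18 at day 0, -0.52 ± 0.21 at day 0.5 (adjusted p = 0.401) and -0.00 ± 0.18 at day 1 (limma, adjusted p = 0.993). Fzd5, averaged over 3 probes, read -0.03 and -0.06 at day 0, 0.15 and 0.02 at day 0.5, and 0.21 and 0.08 at day 1. The fitted values were -0.05 ± 0.11, 0.10 ± 0.12 and 0.15 ± 0.11, none past the threshold (adjusted p = 0.927, 0.829 and 0.473). The 3 probes of Fzd5 lay between 0.05 and 0.22 at day 1, so here the probes agreed within 0.173.

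**Figure D4:**
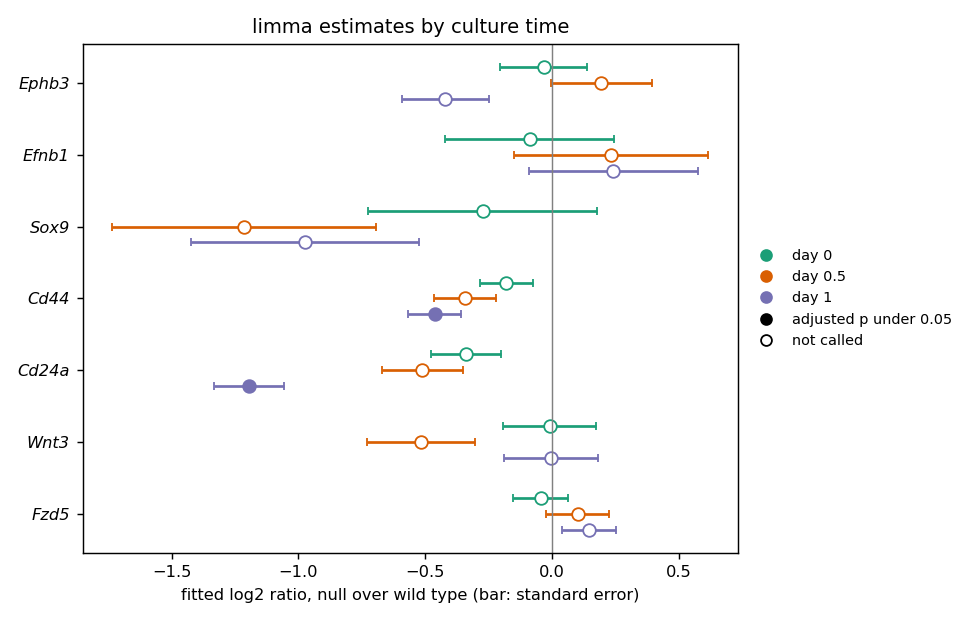
Fitted log2 ratios (limma, null over wild type in the likely direction) with standard errors for the 7 genes in the 3 untreated groups, filled where the adjusted p is under 0.05. Cd24a at -1.19 and Cd44 at -0.46 on day 1 are the filled points.

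Read as a group, 2 of the 7 genes were called at day 1, both lower, against 20.5% of all genes called in either direction and 11.1% lower. None was called at day 0 (0 of 7, background 2.23%, 1 at an unadjusted p under 0.05) or at day 0.5 (0 of 7, background 0.436%, 3 unadjusted). Cd24a and Cd44 were also called over the 3 untreated groups together, against 18.6% of all genes called and 9.75% lower. Without day 1 replicate 1, no gene of the 7 passed at day 1 and 6.03% of all genes did. In the fit with the replicate block the counts were 1 at day 0.5 and 3 at day 1, Sox9 being the gene gained. Under any alternative on gene means, that block included, at most 5.61% of all genes passed at day 0.5 and 26.9% at day 1. The median of the 7 fitted values was -0.09 at day 0, -0.34 at day 0.5 and -0.42 at day 1, against medians of all genes within 0.008 of 0. For the change from day 0 to day 1 the count was 1 of 7, Cd24a, against 8.39% of all genes and 4.79% lower. No gene passed for the step from day 0 to day 0.5 (0 of 7, 0.132% of all genes, 0 unadjusted) or for that from day 0.5 to day 1 (0 of 7, 1.99%, 1 unadjusted). Both arrays lay below 0 for 5 of the 7 genes at day 0, 4 at day 0.5, 4 at day 1 and 0 with LiCl as deposited, against 30.7%, 28%, 33% and 27.8% of all genes. With the LiCl sign turned the last count was 5 of 7, against 30.2% of all genes. The day 1 count of 2 in 7 is near the share of all genes and is no result about the group.

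Most of the genes that these 7 work with did not pass at day 1, when 20.5% of all genes did. In the lists of other Eph and ephrin genes, Eph signalling, other Sox genes, other Wnt ligands and receptors, and Cd44 partners, 3 of 18, 2 of 21, 2 of 16, 3 of 30 and 3 of 13 passed. Of 18 other Eph receptors and ephrins 2 were higher and 1 lower (median -0.00). Efnb2, a second ephrin-B ligand that binds the same receptors, read 0.32 and 0.36 at day 0, 1.10 and 0.155 at day 0.5, and 1.36 and 1.51 at day 1, all above 0, with a fitted 1.44 ± 0.20 at day 1 (limma, 2.71-fold, adjusted p = 0.00266). Efna1, an ephrin-A ligand, was also higher at 0.76 ± 0.12 (adjusted p = 0.00457), and Ephb4 was lower at -0.72 ± 0.19 (adjusted p = 0.0367). Efnb2 and Efna1 passed over the 3 untreated groups as well, at 0.82 ± 0.12 and 0.58 ± 0.07 (adjusted p = 0.00426 and 0.00234). Of 21 genes of Eph signalling 2 were higher at day 1, the GTPase Rac1 at 0.66 ± 0.13 and the adaptor Sdcbp at 0.61 ± 0.10, and none was lower (median 0.00). Over the 3 untreated groups Adam10, the protease that cleaves ephrins after Eph contact, joined them at 0.41 ± 0.10 (adjusted p = 0.0307).

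Of 16 other Sox genes Sox4, a regulator of early crypt progenitors, was lower at day 1 (-0.81 and -0.90, fitted -0.86 ± 0.12, adjusted p = 0.00306) and Sox13 higher at 0.54 ± 0.14 (adjusted p = 0.0288), with a median of 0.01. Of 30 other Wnt ligands, frizzled receptors and partners 2 were higher and 1 lower (median 0.01), Lrp6 at 0.85 ± 0.14, Wnt6 at 0.50 ± 0.10 and the stem cell receptor Fzd7 at -0.61 ± 0.10. Of 13 genes that bind, make or anchor hyaluronan or Cd44, 2 were higher and 1 lower. Met, the receptor that works with Cd44 variants, was at 0.75 ± 0.20, the linker Ezr at 0.61 ± 0.12 and the hyaluronan receptor Hmmr, also a mitotic gene, at -0.72 ± 0.15.

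Other Wnt targets of the crypt were lower in part at day 1. Of 16 measured, 8 were lower, none was higher and 8 did not pass (median -0.62, from -3.08 to 0.10), against 11.1% of all genes lower. The called genes were led by Ccnd1, a driver of cell cycle entry, at -3.08 ± 0.10. At day 0 and day 0.5, when none of the 7 genes passed, 2 and 3 of these 16 did, where 2.23% and 0.436% of all genes passed. All 6 stem cell markers of the crypt base were lower at day 1 (median -1.69). Of these, Lgr5, Ascl2, Rnf43 and Slc12a2 were also counted among the Wnt targets, so the lists are not separate results. Markers of the other lineages were higher at day 1, 3 of 4 for goblet cells (median 0.86), 4 of 6 for enterocytes (median 0.87) and 6 of 7 for enteroendocrine cells (median 0.95), with 9.38% of all genes higher, and none of them passed at day 0. Their part in the values of the 7 genes was not tested. Of 18 Paneth cell genes 10 were lower at day 0, 5 at day 0.5 and 7 at day 1 (1, 0 and 3 higher), among them Lyz1, the Paneth cell lysozyme, at -4.20 ± 0.14 on day 0. Low values of Paneth cell genes helped to set the direction of all ratios, so the sign of these values is no separate result. In RNA of whole crypts, fewer cells of a type and less RNA per cell cannot be told apart.

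**Figure D5:**
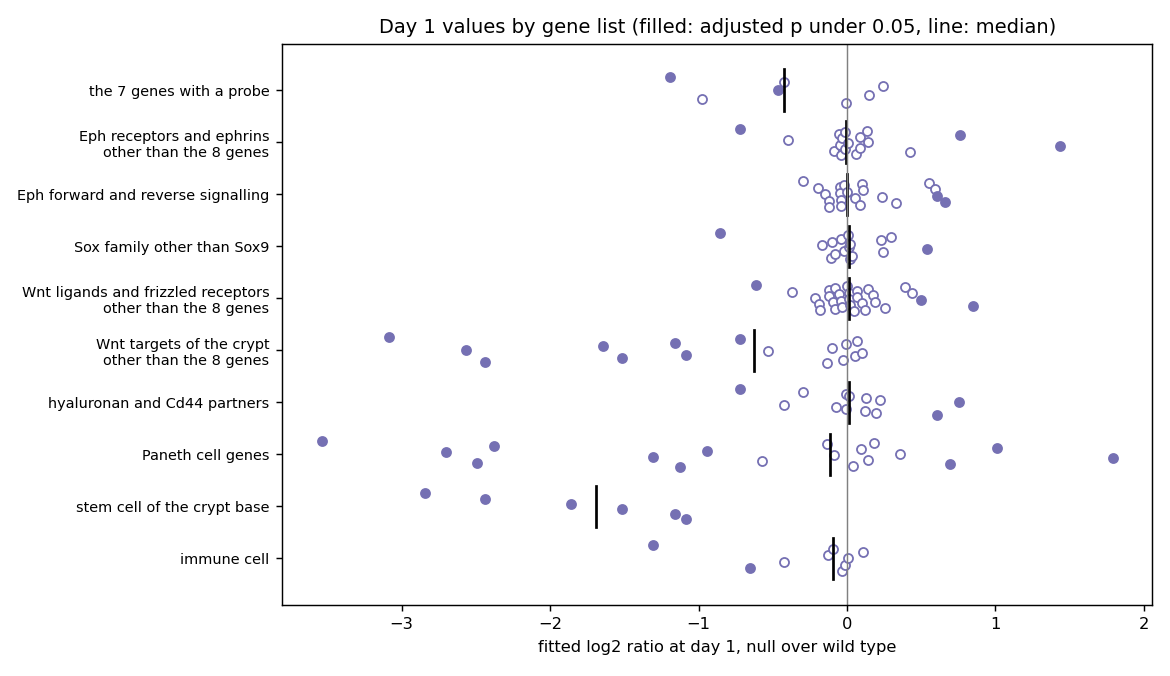
Fitted day 1 log2 ratios (null over wild type in the likely direction) of the 7 genes and of the genes of each list, 1 point a gene, filled where the adjusted p is under 0.05, with a line at the list's median. The 7 genes have a median of -0.42, other Wnt targets -0.62, crypt base stem cell markers -1.69 and other Eph receptors and ephrins -0.00. Lgr5, Ascl2, Rnf43 and Slc12a2 are drawn in both the Wnt target and the stem cell list.

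Blood and stromal cells also make Cd44 or Cd24a. Of 9 immune cell markers 6 were lower at day 0 (median -1.25, from -2.72 to -0.12), 2 at day 0.5 (median -0.13) and 2 at day 1 (median -0.09), with 2.23%, 0.436% and 20.5% of all genes called. Over the same times the fitted values of Cd24a were -0.34, -0.51 and -1.19 and those of Cd44 -0.18, -0.34 and -0.46. The immune cell markers lower at day 1 were Lyz2 (-1.305), also counted among the Paneth cell genes, and H2-Ab1 (-0.652). The other 7 did not pass, among them Ptprc at 0.108 and Cd3e at -0.013. Of 11 mesenchyme markers Vim and Dcn were lower at day 0 (-0.58 ± 0.10 and -0.51 ± 0.09), and Vim alone was higher at day 0.5 (0.77 ± 0.11) and day 1 (1.02 ± 0.10). None of the 6 endothelial markers passed at any time. The part of these cells in the Cd44 and Cd24a values was not tested.

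The genes whose 8 values lay nearest to those of a member were found by the root mean square difference over the 8 arrays, for members with a root mean square of at least 0.5. Such genes resemble the member on these arrays by that choice, so a shared pattern is no separate result. For Cd24a they were Snrnp40 (0.107), Anp32b (0.116) and Rpl27a (0.12), which read -1.15 and -1.04, -1.14 and -1.11, and -0.985 and -1.12 on the day 1 arrays. For Sox9 they were Nanp (0.288), Pecr (0.446) and Odc1 (0.484), and the nearest, Nanp, had the same drop from replicate 1 to replicate 2, from -0.24 to -1.62 at day 0.5 and from 0.12 to -1.13 at day 1. For Efnb1 they were Olfr698 (0.265), Pi4kb (0.298) and Ppp2r5b (0.299). Among the 7 genes themselves the closest pair was Ephb3 and Fzd5 (0.332) and the farthest Efnb1 and Sox9 (1.22), while Cd44 and Cd24a differed by 0.409.

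With LiCl, none of the 7 genes was called (0 of 7, background 2.58%, 1 at an unadjusted p under 0.05). Cd24a read 0.37 and 0.37 and Cd44 0.26 and 0.21 on these arrays as deposited, in each case with both arrays close together and above 0. The fitted values were 0.37 ± 0.14 for Cd24a (limma, adjusted p = 0.275) and 0.23 ± 0.10 for Cd44 (adjusted p = 0.413). Probe mMC014347 of Cd44, the lowest of the 8 without LiCl at day 1, read 0.95 and 1.14 as deposited, the highest of the 8, and -0.95 and -1.14 with the sign turned, the lowest of the 8. Ephb3 at 0.47 and -0.275 and Sox9 at 0.70 and -0.67 split across 0, and Wnt3 lay at 0.00 and 0.01.

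Against day 1 without LiCl, the ratio of Cd24a was higher by 1.56 ± 0.19 (limma, adjusted p = 0.00179) and that of Cd44 by 0.69 ± 0.15 (adjusted p = 0.0163), 2 of 7 genes, both higher, against 18.9% of all genes called and 10.4% higher. With any 1 array left out, this difference ran from 1.38 to 1.75 for Cd24a and from 0.54 to 0.85 for Cd44. The Cd44 call was lost in some of these fits, while Ephb3 and Efnb1 were gained in some, so the genes called rest on single arrays. With the sign of the LiCl arrays turned, Cd24a still differed, by 0.83 ± 0.19 (adjusted p = 0.0427), and Cd44 by 0.23 ± 0.15 did not pass (adjusted p = 0.497). So in either direction the LiCl ratio of Cd24a was nearer to 0 than its day 1 ratio, at 0.37 in size against 1.19. The LiCl arrays were also narrower over all probes (SD 0.282 and 0.247, against 0.473 and 0.441 at day 1). With arrays scaled to equal spread, Cd24a stood at 0.54 with LiCl and at -0.91 at day 1. Scaling was not combined with the turned sign. Sox9 changed by 0.99 ± 0.64 (adjusted p = 0.422), and passed at the same size with the replicate block (0.99 ± 0.16, adjusted p = 0.00449). Of the Wnt targets listed above, 8 of 16 were higher in this comparison as deposited and none lower, with a median of 0.56. With the LiCl sign turned 7 of 16 were higher and none lower, with a median of 0.64, where 6.83% of all genes were called.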

How the data were processed

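Log ratios of 8 arrays with 2 channels each, null and wild-type crypt RNA, were analysed. Per the labels' protocols, RNA was amplified with aminoallyl nucleotides, labelled with Cy5 or Cy3 and put on MEEBO oligonucleotide arrays. The authors deposited 1 value per probe and array, taken here as a log2 ratio. Its base, background correction and normalization are not given in the sources, and array medians of -0.006 to 0.001 show it was centred. No intensities came with these values, so signal over background is unknown, and the number of arrays limits the precision.

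The table held 38467 probes. By the platform's annotation 22941 have 1 symbol, 0 have several and 15526 none, and all 22941 identifiers matched the reference table with 0 symbols changed. Leaving out 636 named control series probes, 0 of them named for a gene described here, kept 22305 probes of 15123 genes. Columns of other series numbered 0. Probes of a gene were averaged and arrays centred on their median.

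The 8 arrays were fitted together in limma 3.58.1 (R 4.3.3), with 4 group means and a dye term (null RNA in Cy5 or Cy3, as labelled), then eBayes (3 residual and 4.09 prior degrees of freedom). The threshold was an adjusted p of 0.05, by Benjamini-Hochberg over 15123 genes, and ± gives limma's standard error. Day 0.5, with the null RNA in Cy5 on both arrays per the labels, has a fitted value adjusted for the dye term and not the plain mean, and this enters the mean of 3 groups and the changes to and from day 0.5. Replicate numbers come from the sample titles. The gap between replicates 1 and 2 correlated over genes between all 6 pairs of groups (r from 0.21 to 0.278), with LiCl as deposited. With the LiCl sign turned, the correlations with the LiCl gap become negative. With day 0.5 replicate 2 read as a dye swap, replicate number and dye coincide in the untreated groups. The gaps therefore do not show that the numbers pair the arrays. The main fit has no replicate block, and values with the block are given where they change a call. The fit was tested on simulated data with independent noise on each array, a dye effect and changes at day 1 only. Those data held no replicate effect shared by the groups and no wrong sign or dye label. The test therefore says nothing of the pairing, the LiCl sign or the labelled dyes.

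The genes, lists and tests were chosen with earlier results of these data known. Text names every gene of the set, up to 4 of the largest called genes of a list, and the 3 nearest genes of each member. Alternatives were the dye term, the block, leaving out arrays, scaling, the LiCl arrays and their sign, the dye of day 0.5 replicate 2, probe medians, control probes and robust eBayes. Python 3.11.15, numpy 2.4.6, pandas 2.3.3 and matplotlib 3.10.9 prepared tables and figures.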

Additional observations from a re-analysis of the deposited data

Results flagged for a closer look

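For 2 of the 7 genes the null to wild-type ratio differed between groups by limma's test of the change itself. The ratio of Cd24a changed by -0.86 ± 0.19 from day 0 to day 1 (adjusted p = 0.0415) and by 1.56 ± 0.19 from day 1 to day 1 with LiCl (adjusted p = 0.00179). The ratio of Cd44 changed by 0.69 ± 0.15 from day 1 to day 1 with LiCl (adjusted p = 0.0163). Both comparisons with LiCl rest on arrays whose direction is not settled, and only that of Cd24a still passed with their sign turned. Groups of 2 arrays are too small to look for outlying arrays.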

How the results depend on the processing

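Over 1218 repeats of single values (7 genes, the comparisons and all alternatives) no called value turned its direction. Most of these values were not called in the main fit. Uncalled values changed sign in 37 repeats with 1 array left out. They also did so in 18 of the other planned repeats and in 12 of those chosen after seeing the data. Both of the latter counts include LiCl values flipped by turning their sign. Counts of called genes among the 7 changed as follows. With the replicate block beside the dye term there was 1 at day 0.5 instead of 0 and 2 for the change from day 0 to day 1 instead of 1, Sox9 being the gene gained, as also for 3 at day 1, 3 over the untreated groups and 3 for day 1 against LiCl, each instead of 2, and the block changed no call other than those of Sox9. With arrays scaled to equal spread there was 1 at day 1 instead of 2, 1 with LiCl instead of 0 and 0 for the change from day 0 to day 1. With the LiCl sign turned there was 1 for the change from day 1 to LiCl instead of 2, but 3 at day 1 and 3 over the untreated groups, Sox9 gained (adjusted p = 0.0457 and 0.00612). Without LiCl arrays there were 3 at day 1, Ephb3 gained (adjusted p = 0.0482), and 3 over the untreated groups, Sox9 gained (adjusted p = 0.016). The next alternatives were chosen after seeing the data. With the LiCl sign turned and day 0.5 replicate 2 as a dye swap, as the series text describes, there was 1 at day 0.5, 1 for the later step to day 1 from day 0.5 and 2 for the change since day 0. Without LiCl arrays and dye term the change since day 0 had 0, and without LiCl arrays and with that swap there was 1 at day 0.5 and 4 at day 1. The cause was not tested. Leaving out 1 array gave 0 to 3 at day 1, 0 to 1 for the change since day 0, 1 to 3 over the 3 untreated groups and 1 to 3 between day 1 and LiCl. Cd24a at day 1 passed in 19 of 20 alternatives, Cd44 in 17 and Sox9 in 4. These alternatives are not independent checks. For Sox9, leaving out either LiCl array gave the same day 1 fit as leaving out both. Leaving out a day 0 or day 0.5 array kept its day 1 value at -0.974. Over all genes, the counts and their ranges over the alternatives on gene means were 337 at day 0 (26 to 905), 66 at day 0.5 (9 to 848, and 237 with the block), 3103 at day 1 (912 to 4072), 390 with LiCl (4 to 1444), 2820 over the untreated groups (1009 to 4072), 1269 for day 0 against day 1 (110 to 2223) and 2856 for day 1 against LiCl (1033 to 3563). The step to day 0.5 had 20 (0 to 227) and the step after it 301 (0 to 1115). Signal over background is unknown, so a flat ratio can also be a dim probe.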
